A study of Mus musculus with 8 samples.

Results

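The 5S ribosomal RNA genes of the mouse lie in tandem on chromosome 8, and their array is described here in hematopoietic stem cells (HSCs) from old and young mice. The array was taken as every deposited peak lying fully inside chromosome 8 from 126062000 to 126148000 in the mm9 build, which gave 51 of the 126871 peaks in the table. The window had been selected on measured values of these data, namely a run of peaks higher in old libraries, and on their even spacing. Its level in old against young libraries is therefore a description here, without a test. The 200 kb on each side served as flanks and held 30 peaks at lower and 23 peaks at higher coordinates.

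Open chromatin was profiled by bulk ATAC-seq, in which a transposase cuts and tags open DNA, so that the reads over a region follow how open it is. The libraries came from 4 samples of old HSCs and 4 samples of young HSCs, titled with replicate numbers 1 to 4 in each group. Both groups were C57BL/6 bone marrow cells sorted as LSK CD150+ CD48-, a gate on stem cell surface markers, and no allele or treatment is named for either. The labels give no ages in months and no sex, and do not say whether replicates were separate or pooled mice, so every p-value given rests on the spread among libraries, which may be technical. Total counts ran from 4200905 to 5129684 per library. No gene annotation of the mm9 build was used, so the sorted cell type was not checked against marker loci.

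Ribosomes need 5S rRNA in the same amount as the larger rRNAs, but it is made apart from them. RNA polymerase III transcribes it, guided by a promoter that lies inside the gene and is bound first by the zinc finger protein TFIIIA and then by TFIIIC and TFIIIB. The transcript joins the ribosomal proteins Rpl5 and Rpl11 before it enters the large subunit, and free 5S particles are known to restrain Mdm2, the ubiquitin ligase that degrades p53. Repeated gene copies carry a caution of their own. Their sequences are close to identical, so a short read can match many copies, and a count over any single copy depends on where the aligner placed such reads. The handling of reads with several matches is not given in the sources used here. Single peaks of the array are therefore uncertain, and counts do not give openness per gene copy. In bulk libraries a larger share of cells with open chromatin and more open chromatin per cell cannot be told apart.

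The 51 peaks formed a regular ladder. They ran from 126062386 to 126147993, a span of 85.6 kb, and their centres stood a median of 1704 bases apart, with spacings of 1573 to 1853 bases. The spacing had a coefficient of variation of 3.41%. Over all other stretches of 51 neighbouring peaks in the table the lowest value was 56.5% and the median was 122%. The array was the longest run of peaks in the table with centres 1275 to 2125 bases apart, and the next longest runs held 5 peaks, on chromosomes 5, 7 and 15. Even spacing was part of how the window was picked, so both comparisons are a description. A straight line through the peak centres rose by 1696 bases per peak, and the centres lay around it with an SD of 51.3 bases, so no step of the ladder lacked a peak.

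RefSeq places the same number of 5S entries in its cluster as there were peaks. On its assembly GRCm38.p6, a later build than the one used for the peaks, an unbroken row of 51 entries on chromosome 8 lies between Gas8, which encodes a subunit of the dynein regulatory complex of cilia, and the long noncoding RNA gene Gm19600. Of these, 48 are listed as rRNA genes and 3 as pseudogenes, with lengths of 109 to 121 bases. The entry called Rn5s is number 36 counted from the lower coordinates. A further 28 entries with a 5S name lie elsewhere in that table, 11 of them listed as rRNA genes. Only names and order were taken from it, so which peak holds which entry was not tested. That the peaks lie on 5S genes rests on the window and on the matching number, not on an annotation of mm9.

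Each peak covered a minor part of its repeat. Peak width had a median of 614 bases and ran from 301 to 759 bases, against a median of 407 bases over all deposited peaks and 620 bases over the 73164 peaks that passed the filter on low counts. Peaks covered 35.0% of the array's span, and the gaps between them ran from 958 to 1449 bases. Most peaks were alike in width, with 41 of 51 between 500 and 700 bases. The 4 peaks over 700 bases wide were the first, the second, the fiftieth and the last of the array, so the widest peaks sat at its ends. The 6 peaks under 450 bases lay inside it, and the narrowest was the tenth.

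The narrow peaks were cut back more at their lower-coordinate edge. Relative to a straight line through all peak starts, the 6 narrow peaks began 151 bases late on average, while relative to the line through all peak ends their mean offset was -46.8 bases, that is, they stopped early. The other peaks began 20.1 bases before the line through the starts and ended 6.23 bases beyond the line through the ends, on average.

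**Figure D1:**
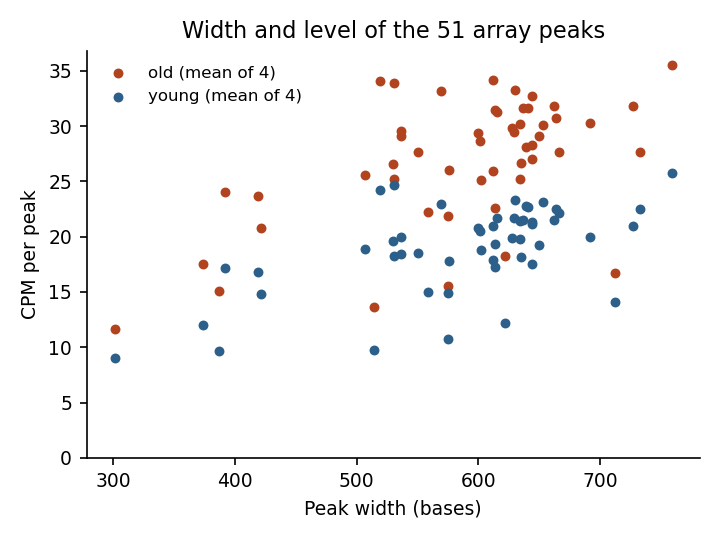
Width of each of the 51 array peaks in bases against its level in CPM, as the mean of 4 old libraries and the mean of 4 young libraries. The 6 peaks under 450 bases wide average 10.4 to 20.6 CPM over all libraries, below the array's median of 24.6 CPM. The widest peak is also the strongest. CPM are summed over each peak and not divided by its width.

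Levels are given in CPM, which scale each count to a common library size. The array peaks were strong but not extreme. Their mean over the 8 libraries ran from 10.4 to 30.7 CPM with a median of 24.6 CPM, and 84.3% of all tested peaks had a lower mean than that median. Behind these values stood 46.5 to 137 counts per peak and library on average. Together the peaks took 0.128 ± 0.0110% of all counts in old libraries and 0.0917 ± 0.0175% in young libraries (± SD, n = 4 per group). With the chromosomes tiled in windows of 86 kb, none of the 21708 other windows with a peak held more counts than the array over the 8 libraries, and none held as many peaks. The fullest of them held 29 peaks and the median window held 5. Since the window was picked as a run of peaks, this too is a description.

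The ladder stood far above its surroundings. Per kb of span it held 16.0 ± 1.43 CPM in old libraries and 11.3 ± 2.15 CPM in young libraries. The lower-coordinate flank held 1.83 ± 0.0708 CPM per kb in old libraries and 1.92 ± 0.0349 CPM per kb in young libraries. The higher-coordinate flank held 0.563 ± 0.0210 CPM per kb in old libraries and 0.505 ± 0.0343 CPM per kb in young libraries (± SD, n = 4 for all 6 values). The nearest outside peaks were 19.3 kb below the first array peak and 4.45 kb above the last.

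Wider array peaks tended to be stronger, with a Pearson r of 0.58 and a Spearman rho of 0.50 between width and mean CPM across the 51 peaks. These peaks share libraries and nearly the same sequence, so the value is a description. CPM are summed over a peak, so a wider peak can collect more reads. Per kb of peak width, the 6 peaks under 450 bases had 31.9 to 52.5 CPM. The 4 peaks over 700 bases had 21.7 to 40.4 CPM per kb. Position along the array went with level only weakly, at a rho of 0.09. The weakest peak was the narrowest, from 126078043 to 126078344. It had 8.66, 12.2, 12.5 and 13.4 CPM in old replicates 1 to 4, against 5.60, 10.5, 9.25 and 10.8 CPM in young replicates 1 to 4. The strongest was the last and widest, from 126147234 to 126147993. It had 28.8, 38.5, 40.8 and 33.9 CPM in old libraries, against 16.3, 32.0, 26.3 and 28.7 CPM in young libraries, in the same replicate order. At both peaks young replicate 1 was the lowest of the 8 libraries, and at both the highest young library lay above the lowest old one.

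**Figure D2:**
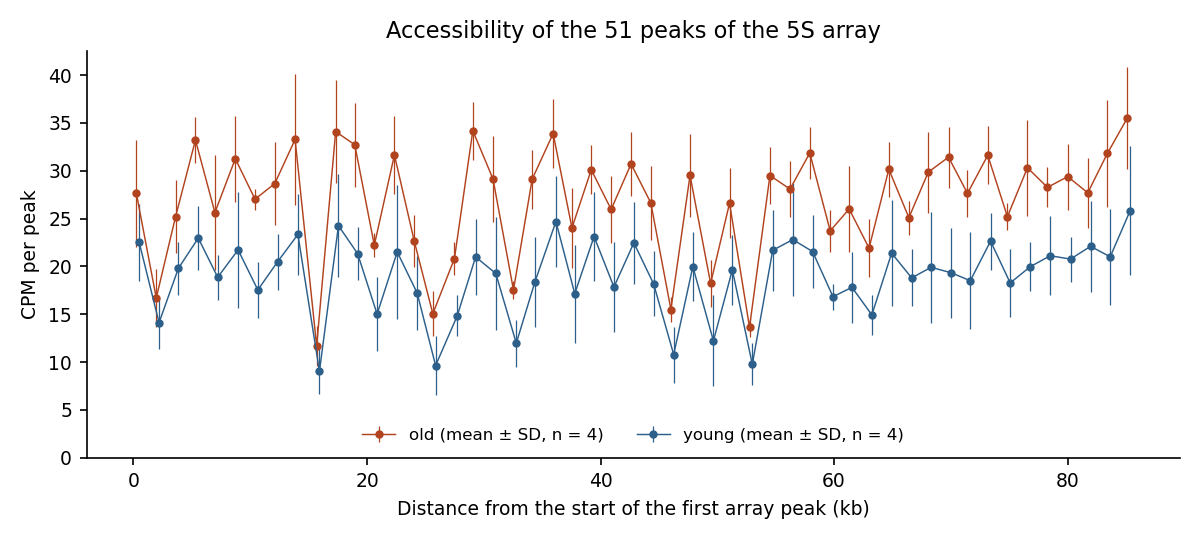
Level of each array peak in CPM (mean ± SD of 4 libraries) against the distance of its centre from the start of the first array peak, in kb, for old and young libraries. The line for old libraries runs above that for young libraries at all 51 peaks, and both share the same high and low peaks.

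Summed over the array, old replicates 1 to 4 had 1251, 1396, 1529 and 1301 CPM, against 708, 1136, 972 and 1048 CPM in young replicates 1 to 4. The groups did not overlap, but the lowest old library was only 1.10 times the highest young one. The means were 1369 ± 122 CPM in old libraries and 966 ± 184 CPM in young libraries (± SD, n = 4 per group), a ratio of 1.42. These sums rest on 3038 to 6634 counts per library, so counting error alone was 1.23% to 1.81% of a sum. The SD between libraries was 8.94% of the mean in old and 19.1% of the mean in young libraries.

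Young replicate 1 held much of that spread. It was the lowest of the 8 libraries at 50 of the 51 array peaks, and young replicate 4 was lowest at the other. Without young replicate 1 the ratio of the means was 1.30, and without each of the other libraries in turn it was 1.36 to 1.51. At the upper end, old replicate 3 was the highest of the 8 libraries at 35 peaks, old replicate 2 at 10, old replicate 4 at 5 and old replicate 1 at 1. Old replicate 4, whose log2 CPM over all tested peaks had a mean r of 0.919 within its own group and 0.907 to the young group, was below old replicates 2 and 3 and above old replicate 1 at the array, and the ratio without it was 1.44. Young replicate 1 had a total of 4508240 counts, within the range of the other young libraries, which was 4229913 to 4992173.

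**Figure D3:**
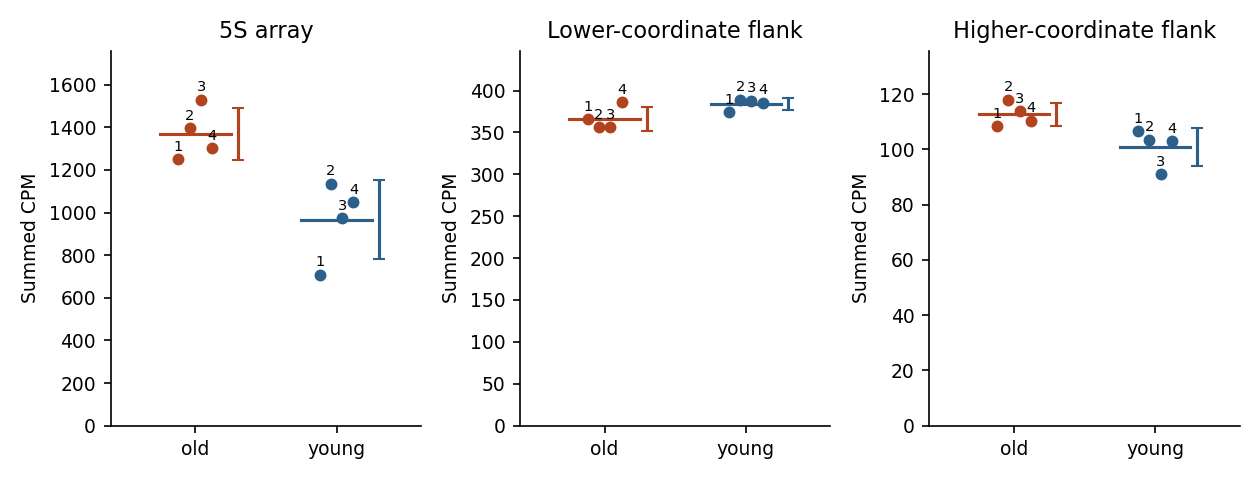
Summed CPM of the array and of the 200 kb on each side in each old and young library, numbered by replicate, with group means (horizontal lines) and SD (bars beside the points). Old libraries lie at 1251 to 1529 CPM and young ones at 708 to 1136 CPM at the array, while the lower-coordinate flank spans 356 to 389 CPM over all 8 libraries.

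All 51 array peaks passed the filter on low counts, and all 51 had a higher mean in old than in young libraries. Of these, 38 were called higher and 0 lower (quasi-likelihood test in edgeR, p adjusted by Benjamini-Hochberg over all tested peaks, below 0.05), where 10% of all tested peaks were called higher and 10.4% lower. At 34 peaks all 4 old libraries lay above all 4 young libraries, which held for 10.5% of all tested peaks. No array peak had a negative fold change, and 0 were called lower by DESeq2 or limma voom. These counts come from the contrast on which the array was picked, so nothing is read from them. Without young replicate 1 the number called higher was 17, without old replicate 3 it was 22 and without old replicate 2 it was 23. In the same order, 8.13%, 6.84% and 6.88% of all tested peaks were called higher. Where the groups overlapped, at 17 peaks, the highest young library was replicate 2 at 15 of them and replicate 4 at 2.

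Fold changes of single peaks spread about as much as counting error. Fitted log2 fold changes, old minus young, ran from 0.24 to 0.70 with a median of 0.50 and quartiles of 0.44 and 0.56, beside a median of 0.01 and quartiles of -0.32 and 0.27 over all tested peaks. Their SD over the 51 peaks was 0.100. The counting error of a single peak's fold change, from its summed old and young counts alone, had a median of 0.0990 on the same scale. The fitted standard errors, which include the variation between libraries, had a median of 0.15. The 13 peaks that were not called had fold changes of 0.24 to 0.56 and the 38 called ones had fold changes of 0.38 to 0.70, so the ranges overlapped.

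The largest fold change belonged to the peak from 126091261 to 126091873. It had 30.6, 36.2, 37.1 and 32.9 CPM in old replicates 1 to 4, against 15.9, 25.04, 20.3 and 22.8 CPM in young replicates 1 to 4, and a log2 fold change of 0.70 ± 0.13 (SE). All old libraries lay above all young ones there. The peaks from 126131999 to 126132613 and from 126096381 to 126096917 followed, with log2 fold changes of 0.69 ± 0.14 and 0.66 ± 0.15.

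The smallest fold change belonged to the second peak of the array, from 126064101 to 126064813. It had 13.2, 15.1, 19.8 and 18.6 CPM in old libraries, against 11.0, 16.4, 12.8 and 16.4 CPM in young libraries, with a log2 fold change of 0.24 ± 0.17 (SE). Both groups overlapped there, since young replicates 2 and 4 lay above old replicates 1 and 2. The first peak, from 126062386 to 126063119, had a log2 fold change of 0.29 ± 0.15 and the third, from 126065794 to 126066428, had 0.34 ± 0.14. None of these first 3 peaks was called, and their median of 0.29 compares with 0.51 for the other 48. Choosing the first 3 came after their values were seen, so no test was made of it. At the far end the last peak had a log2 fold change of 0.46 ± 0.17, close to the array's median.

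Fold change went only weakly with level, width and position across the 51 peaks, which is a description with no test. Spearman's rho with the fold change was 0.04 for mean CPM, -0.08 for width and 0.09 for position. The peaks that were strong in old libraries were also those strong in young libraries, with a Pearson r of 0.95 between the mean old and the mean young CPM of the 51 peaks. The strong inner peaks from 126098180 to 126098711 and from 126079561 to 126080080 had log2 fold changes of 0.45 ± 0.13 and 0.49 ± 0.15. The weak ones from 126115006 to 126115520 and from 126087948 to 126088335 had 0.48 ± 0.18 and 0.63 ± 0.20.

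**Figure D4:**
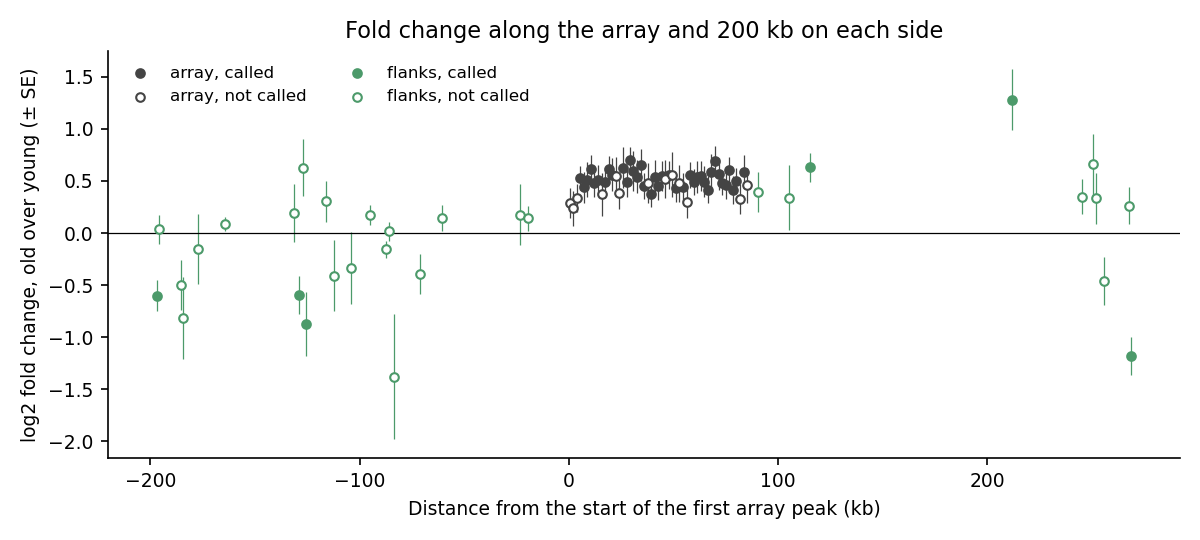
Fitted log2 fold change, old over young, with its standard error for each tested peak, against the distance from the start of the first array peak in kb, with filled points for peaks called at an adjusted p below 0.05. Array peaks lie between 0.24 and 0.70, and flank peaks scatter between -1.38 and 1.28.

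How counts were divided among the peaks does not depend on the array's total, so this was tested. Where reads with several matches were placed is not known. If they were spread over the copies without regard to origin, shares would be alike in every library. The tests could then not show a shift. The 25 peaks at the lower coordinates took 48.4, 48.0, 49.1 and 48.2% of the array's counts in old replicates 1 to 4, against 47.6, 48.6, 48.6 and 48.6% in young replicates 1 to 4. The means were 48.4 ± 0.510% in old libraries and 48.3 ± 0.502% in young libraries (SD over 4 libraries in each group). That difference failed an exact permutation test over 70 assignments (two-sided p = 0.914). The 26 peaks of 614 bases or more took 54.7 ± 0.872% in the old and 55.2 ± 0.534% in the young libraries (exact permutation p = 0.343). The 10 strongest peaks took 24.1 ± 0.528% in the old and 23.9 ± 0.433% in the young libraries (exact permutation p = 0.629). After Benjamini-Hochberg adjustment over these 3 tests each p was 0.914, and the smallest p that this exact design allows is 0.0286. No shift of the profile along the array, towards wide peaks or towards strong peaks, was detectable at this depth, with read placement unknown. The 3 differences in group means, old minus young, were 0.0780, -0.521 and 0.176 percentage points.

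Taking every peak and library together, the profile varied no more than counting allows. For the array's counts in 51 peaks by 8 libraries, chi-square against a single shared profile was 342 on 350 degrees of freedom, or 0.979 per degree of freedom, where pure counting error gives 1. It was 1.09 within old libraries and 0.878 within young libraries, and 0.932 to 1.01 with each library left out in turn. The 31 tested flank peaks gave 2.83, with 2.21 within old and 1.08 within young libraries. All tested peaks elsewhere were then divided along each chromosome into 1423 blocks of 51 neighbours. Their values ran from 1.51 to 6.75 with a median of 2.74, although the blocks had a median of 58.0 counts per peak and library against 102 in the array, and more counts make real differences show more. In the array, differences between libraries beyond its overall height were thus not detectable above counting error. The window was picked as a run of peaks higher in old libraries, which favours an even difference between the groups. The blocks were not picked in this way and were not split by group, so the comparison with them is a description. Reads that match many copies were placed by a procedure not given here, and its part in this evenness was not tested.

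**Figure D5:**
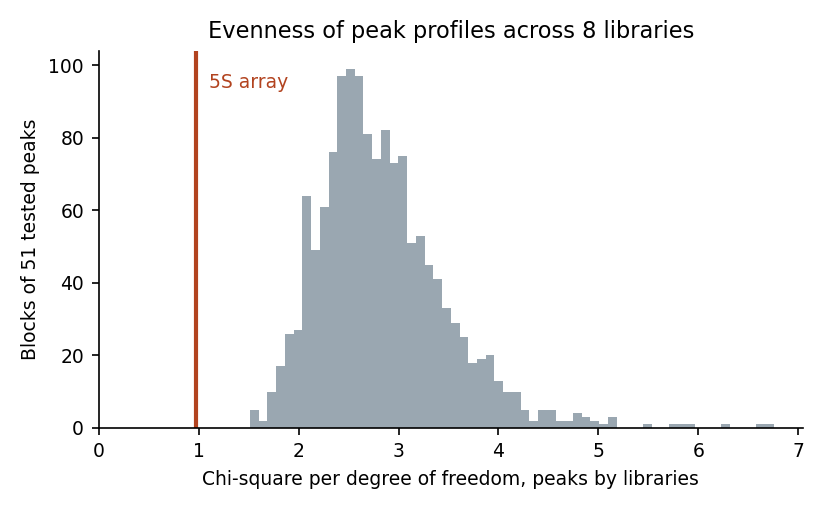
Chi-square per degree of freedom for peaks by 8 libraries against a shared profile, as a histogram over 1423 blocks of 51 neighbouring tested peaks, with the array as a vertical line. The array lies at 0.979 and the blocks lie between 1.51 and 6.75. The array was picked as a run of peaks higher in old libraries and the blocks were not, so the comparison is a description.

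Summed over each flank, the groups lay closer together than at the array. The lower-coordinate flank summed to 366, 357, 356 and 386 CPM in old replicates 1 to 4, against 374, 389, 388 and 386 CPM in young replicates 1 to 4. Its means were 366 ± 14.2 CPM in the old and 384 ± 6.99 CPM in the young libraries (± SD, n = 4 per group; exact permutation p = 0.0857, two-sided). Young replicate 1, low at the array, was also lowest of the young group in this flank. The higher-coordinate flank summed to 108, 118, 114 and 110 CPM in old libraries, against 107, 104, 91.0 and 103 CPM in young libraries. Its means were 113 ± 4.21 CPM in the old and 101 ± 6.86 CPM in the young libraries, a ratio of 1.12. As at the array, the groups did not overlap in it, with the lowest old library 1.02 times the highest young one. No test is given for this flank, since its gains had been placed in the array's run when the window was picked. Young replicate 1 was the highest young library in that flank. The test of the lower-coordinate flank was added after its values were seen. It was run beside that of the other flank, and its exact permutation p was also 0.0857 after Benjamini-Hochberg adjustment over both. Set against both flanks in the same library, the array's counts were 2.64, 2.94, 3.25 and 2.62 times the flank counts in old libraries, against 1.47, 2.31, 2.03 and 2.15 times in young libraries, which is the selected contrast on another scale and is given as a description.

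Single flank peaks moved in both directions. Of 21 tested peaks in the lower-coordinate flank 0 were called higher and 3 lower (edgeR adjusted p below 0.05). Of 10 in the higher-coordinate flank 2 were called higher and 1 lower, beside the 10% and 10.4% of all tested peaks given above. The 2 called higher had been placed in the array's run when the window was picked, so nothing is read from their number. In the lower-coordinate flank 1 peak was higher and 5 were lower at an unadjusted edgeR p below 0.05. Over all 73164 tested peaks these counts were 12061 and 12214. In that flank DESeq2 called 0 higher and 2 lower, and limma voom called 0 higher and 3 lower. The closest neighbours on both sides were not called. The nearest peak below the array, from 126042323 to 126043119, was as strong as the array peaks, at 33.6 ± 4.74 CPM in the old and 30.6 ± 4.44 CPM in the young libraries, with a log2 fold change of 0.14 ± 0.12 (SE), at an edgeR adjusted p of 0.446. The nearest above the array, from 126152439 to 126153242, had 11.6 ± 2.02 CPM in the old and 8.83 ± 1.78 CPM in the young libraries. Its log2 fold change was 0.39 ± 0.19 (SE). No p-value is given, since this peak lies between the array and the flank peaks placed in the array's run.

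The flank peaks that rose both lay above the array, and earlier results of these data had already placed them in a run of gains with it. The peak from 126177230 to 126178505 had 20.9, 19.4, 22.6 and 19.0 CPM in old replicates 1 to 4, against 13.5, 13.7, 13.5 and 12.1 CPM in young replicates 1 to 4. All old libraries lay above all young ones, with a log2 fold change of 0.63 ± 0.14 (SE). Farther out, the weak peak from 126273965 to 126274608 had 4.97 ± 0.580 CPM in the old and 2.01 ± 0.554 CPM in the young libraries. Its log2 fold change was 1.28 ± 0.29. Both fold changes come from the contrast that placed these peaks in the run, so they are a description without a p-value. At neither of these peaks did young replicate 1 stand below the other young libraries as it did at the array.

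The flank peaks that fell lay over 100 kb from the array. The peak from 126330831 to 126331346 had 10.2, 8.84, 5.07 and 11.0 CPM in old libraries, against 21.2, 19.4, 19.0 and 20.0 CPM in young libraries, with a log2 fold change of -1.18 ± 0.18 (SE), at an edgeR adjusted p of 0.000149. Below the array, the peak from 125865312 to 125865930 had 12.3 ± 1.62 CPM in the old and 18.7 ± 2.34 CPM in the young libraries, giving -0.60 ± 0.15 for the log2 fold change (edgeR adjusted p = 0.00786). The peak from 125932831 to 125933770 had 17.6, 17.7, 17.5 and 32.5 CPM in old libraries, against 31.5, 27.8, 36.3 and 34.7 CPM in young libraries, so old replicate 4 lay inside the young range. Its log2 fold change was -0.60 ± 0.18 (edgeR adjusted p = 0.036). The third, from 125936613 to 125936839, was weak, at 2.18 ± 0.586 CPM in the old and 4.04 ± 0.765 CPM in the young libraries, with a fitted log2 difference of -0.87 ± 0.31 (edgeR adjusted p = 0.0486). That call was also lost with DESeq2's test (adjusted p = 0.163), limma voom (adjusted p = 0.0569), no filter on low counts (edgeR adjusted p = 0.0686) and a replicate block (edgeR adjusted p = 0.0534). With limma voom, no filter or a replicate block 4 flank peaks were still called lower, so another peak gained a call there. With DESeq2's test 3 were called lower. The calls at 125932831 and 125936613 were both lost without any single one of old replicates 1 to 3 or young replicates 1, 3 and 4, which left 2 flank peaks called lower.

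Some peaks elsewhere in the genome followed the array's levels across the 8 libraries closely. The 26223 tested peaks outside the array and its flanks with a mean of at least 10 CPM were screened. Of these, the 5 with the highest Pearson r between log2 CPM and the log2 of the array's sum were listed. Since both the array and these peaks differ between old and young libraries, that difference enters r, which is given as a description. The same 8 libraries chose these peaks, so an order of libraries like the array's follows from the choice. The most alike was on chromosome 14 from 6675945 to 6677792 (r = 0.987 over 8 libraries). It had 25.2, 29.2, 31.4 and 23.8 CPM in old replicates 1 to 4, against 7.70, 16.4, 14.3 and 16.6 CPM in young replicates 1 to 4. As at the array, old replicate 3 was highest and young replicate 1 lowest.

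Of the other 4 peaks, another 2 lay near the same end of chromosome 14, from 3207873 to 3209728 (r = 0.984) and from 6973049 to 6974948 (r = 0.979). They were 1855 and 1899 bases wide, and the first of the 5 was 1847 bases wide. The remaining ones were on chromosome 7 from 84652342 to 84653004 (r = 0.982) and on chromosome 3 from 144043877 to 144045199 (r = 0.982). Young replicate 1 was the lowest of the 8 libraries at all 5 peaks, as choosing them by r favours. Its level was 5.83 CPM at the peak from 3207873, where the other young libraries had 11.5 to 12.8 CPM, and 24.7 CPM at the peak on chromosome 3, where they had 29.5 to 34.5 CPM. Genes at these places were not analysed here.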

How the data were processed

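The authors deposited raw counts of reads in a common set of peaks for 4 old and 4 young libraries. The tools named, per the submitters' processing notes, are Bowtie2, MACS2, Picard, SAMtools, FastQC and Trim Galore, with the build mm9 and no versions, and libraries followed Omni-ATAC with a Nextera kit per the labels' protocols. Read counting, peak merging, shifting of read ends and the treatment of reads with several matches were not given in the sources used here.

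Peaks were filtered with edgeR's filterByExpr (groups as given, at least 10 counts, total of at least 15), leaving 73164 peaks and 94.2% of counts. CPM were computed here with TMM scaling, and log2 CPM with a prior count of 2. The groups were set against each other over the whole table with edgeR 4.0.16 (glmQLFit robust, glmQLFTest) in R 4.3.3. The fit was afterwards also run on data simulated from its own means and dispersions, with the result not given here. Standard errors are the fold change divided by the root of the F value. Shares and both flank sums were tested by exact permutation, two-sided. The result for the higher-coordinate flank is left out, since its gains had been placed in the array's run.

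Array members and peak lists were chosen with earlier results of these data known. Named peaks are the first, last, widest and narrowest, the 3 strongest and weakest, the 3 with the largest and smallest fold change, up to 5 uncalled ones, the nearest outside peaks and called flank peaks. Even runs, blocks of 51 and windows were added later. Planned lists of marker genes and of 5S transcription genes were not analysed here, since no mm9 annotation was used, and no 5S sequence is printed. Alternatives were DESeq2 1.42.0 size factors and test, total count scaling, limma 3.58.1 voom, other filters and thresholds, any overlap with the window, counts per base, a flank of 100 kb, a replicate block and each library left out.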

Additional observations from a re-analysis of the deposited data

Results flagged for a closer look

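Each group of 4 libraries was checked for a value distant from the rest in 58 cases, and 4 were found. About 1 in 20, or 2.9, arise by chance. Young replicate 1 had 47.6% of the array's counts in the 25 peaks at the lower coordinates, below 48.57% to 48.62% in the other young libraries. Old replicate 3 had 37.8 CPM at the array peak from 126084535 to 126085172, above 29.5 to 29.7 CPM in the other old libraries. Old replicate 4 had 32.5 CPM at the flank peak from 125932831 to 125933770, above 17.5 to 17.7 CPM in the other old libraries. Young replicate 4 had 12.1 CPM at the flank peak from 126177230 to 126178505, below 13.5 to 13.7 CPM in the other young libraries.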

How the results depend on the processing

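The array's log2 ratio of old over young, 0.50 as reported, was 0.47 to 0.54 under other scalings, without a filter and against the flanks, and 0.38 to 0.59 with each library left out, lowest without young replicate 1. Of the array peaks, 38 were called higher as reported, 13 at an adjusted p below 0.01, 45 with a replicate block, 33 with DESeq2's test and 17 to 43 with each library left out, and 0 were called lower under any of these. In the flanks 2 peaks were called higher, or 1 with a mean count of at least 50 and 1 within 100 kb, and 2 with each library left out. Called lower were 4, or 2 at an adjusted p below 0.01, 0 within 100 kb and 2 to 5 with each library left out. The 25 peaks at the lower coordinates differed by 0.0780 percentage points, old minus young, with each library left out by -0.173 to 0.227, with -0.162 without old replicate 3 and -0.173 without young replicate 1. The 10 strongest peaks differed by 0.176, with each library left out by -0.0243 to 0.385, lowest without old replicate 2. The 26 wider peaks differed by -0.521, with each library left out by -0.917 (without old replicate 3) to -0.255 (without old replicate 2). None of the 3 shares passed under any alternative. For the 22 named peaks no fold change changed sign, and 31 of the alternative values lost a call, 13 gained one and 282 kept their side. Deviations of same-numbered libraries correlated at r of -0.0140, 0.0736, 0.0495 and 0.179 for numbers 1 to 4 over tested peaks. For the old libraries 2 and 4 the best match among young libraries was their own number, and for 1 and 3 it was young replicate 2. Not every r was over 0.1, so the numbers were not taken as pairs, and the smallest p of 16 sign flips is 0.125.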
